A study of Canis lupus familiaris with 32 samples.

Results

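Signals of 8 genes that make, move or break down the lipids of the skin barrier were followed in skin biopsies of atopic dogs after a house dust mite patch. The genes are ABCA12, CERS2, SMPD1, ACER1, SCD, ELOVL6, ELOVL7 and STS, chosen by name with earlier results of these data known. Each was identified with the 1 probe set of the array whose values equal the gene's row in the authors' deposited gene table. All 8 were found, among 10512 genes linked in this way and 42924 probe sets tested.

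The dogs were 8 Maltese-beagle atopic animals, 5 males and 3 females aged 5.5 to 10.5 years. All had been sensitized through the skin to the house dust mite Dermatophagoides farinae (HDM) and had shown acute lesions on challenge before they were chosen. Each dog gave 4 biopsies from the lateral thorax, which make up 4 groups of 8 arrays. The control was skin 6 h after a mineral oil patch, and the mite-patched skin was sampled at 6 h, at 24 h and again at 48 h. The control exists at 6 h only, so the 24 h and 48 h biopsies differ from it both in allergen and in hours after the patch.

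The outermost epidermis is sealed by stacked sheets of ceramides, cholesterol and free fatty acids. Keratinocytes build these lipids, pack them into lamellar bodies as glucosylceramide and sphingomyelin, and secrete them, after which enzymes between the cells release the final ceramides. The length of the fatty acid chains affects how tightly the sheets pack, and barrier lipids are known to be altered in atopic skin of dogs and people. Fatty acid desaturases and elongases also serve the sebaceous glands and the fat under the skin, both of which a biopsy can hold.

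Values are log2 array signals. A change is a log2 difference within dogs, with its standard error (SE), from a limma model over all 32 arrays with the dog as a block. A gene is said to have risen or fallen when the adjusted p (Benjamini-Hochberg over all probe sets tested) was under 0.05. Signals of different probe sets are not comparable as levels, so only differences of a gene between groups are described. In whole skin, fewer cells of a type and less RNA per cell cannot be told apart.

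The biopsies held skin as labelled: 10 of 11 linked markers of differentiated keratinocytes had mean signals above the mean array median, and array medians lay between 4.64 and 4.90. They also held other tissue in unequal amounts. The mean log2 signal of 5 linked skeletal muscle markers was at least 8.19 on 9 arrays, called muscle-rich here, and no more than 6.44 on the remaining 23. The muscle-rich arrays came from 2 controls, from 5 dogs at 6 h and from 2 at 24 h, and none came from 48 h. Of the 5 markers 2 fell at 48 h against the control, where 9.08% of all probe sets fell. The mean of 6 linked adipocyte markers ran from 9.04 to 10.23 in the control, from 8.93 to 10.30 at 6 h, from 8.30 to 9.19 at 24 h and from 7.23 to 8.95 at 48 h. All 8 dogs had a lower adipocyte mean at 24 h, and again at 48 h, than in their own control. The 3' minus 5' difference of a beta-actin control, larger when RNA is more degraded, was higher than in the control by 0.50 at 6 h and differed by -0.48 at 48 h. A second actin control moved the other way at 6 h, by -0.51.

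**Figure D1:**
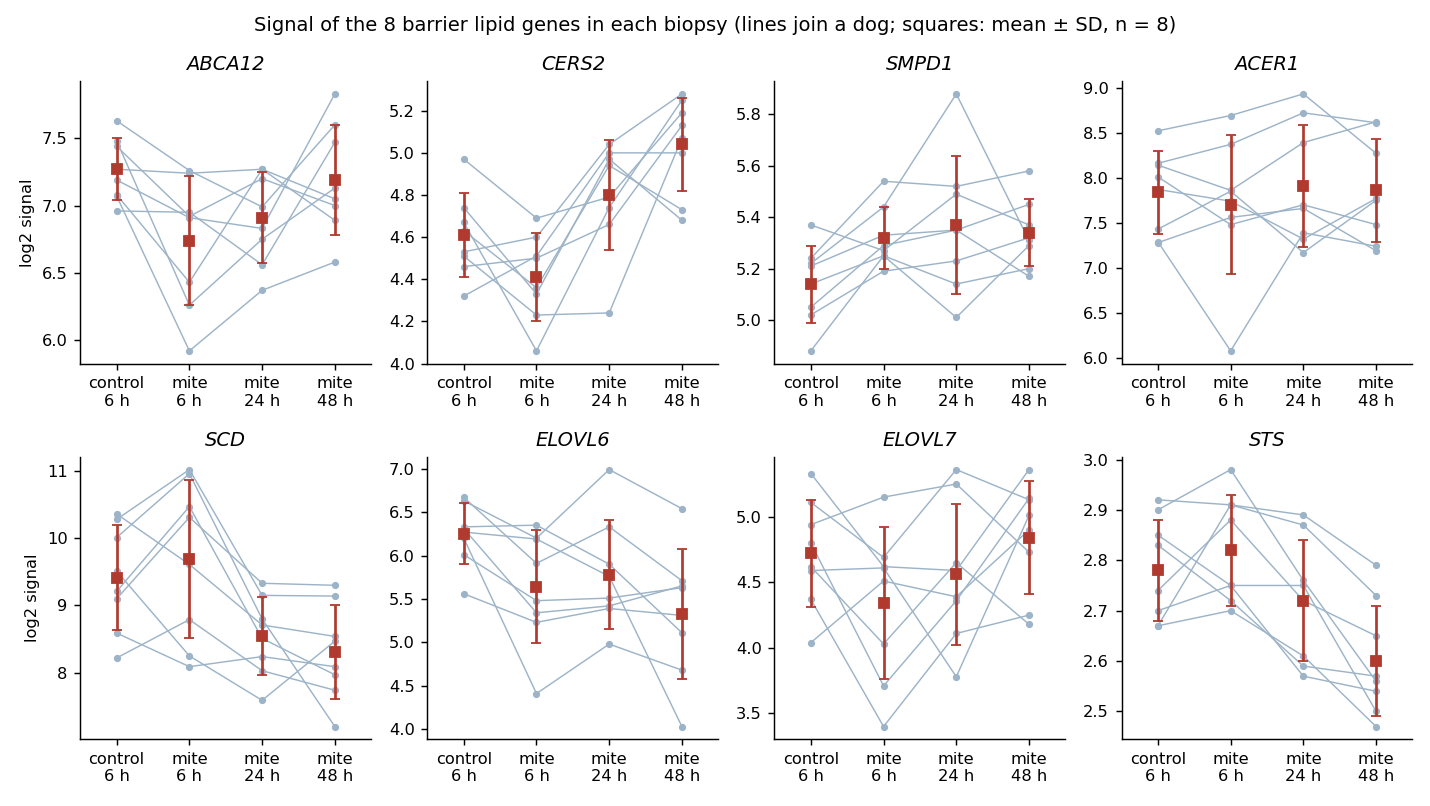
Log2 signal of each of the 8 genes (y axes) in the 4 groups (x axes). Thin lines join the biopsies of a dog, and red squares with bars give the mean ± SD over 8 dogs. CERS2 ends at 5.04 at 48 h from 4.61 in the control, SCD ends at 8.31 from 9.41, and ACER1 stays between group means of 7.70 and 7.91.

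The 48 h biopsies held most of the changes against the control. CERS2 and SMPD1 rose there, and SCD, ELOVL6 and STS fell. That is 5 of the 8 genes, where 19.7% of all probe sets passed in either direction. The 2 that rose stand beside 10.6% of all probe sets that rose, and the 3 that fell beside 9.08% that fell. Since the genes and the lists were chosen with earlier results of these data known, such counts, here and below, are no test of a set. At 6 h ABCA12 alone fell, 1 of 8, where 2.61% of all probe sets fell, 0.275% rose and 2.89% changed in either direction. At 24 h SMPD1 alone rose, 1 of 8, where 2.96% rose, 5.2% fell and 8.17% changed in either direction. The control arrays are shared by these comparisons. ACER1 passed in no comparison.

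**Figure D2:**
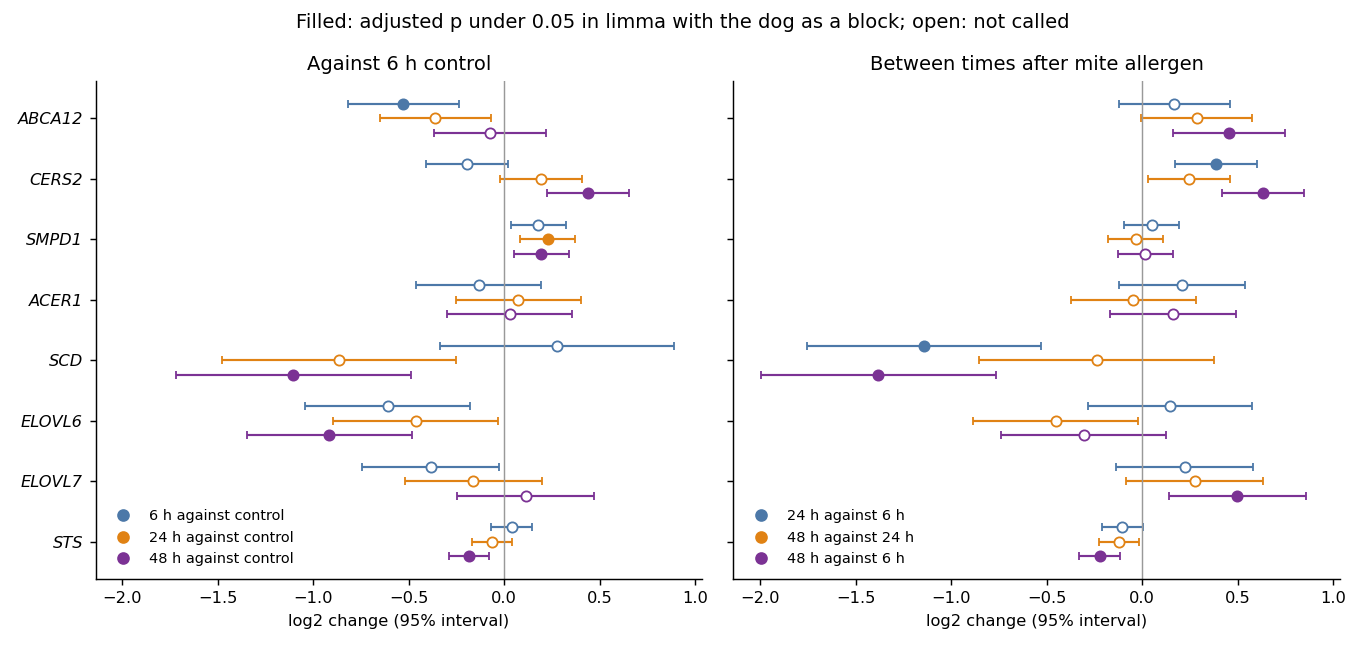
Log2 change (x axis) of each gene (y axis) with its 95% interval, against the 6 h control on the left and between times after the allergen on the right. Filled points passed at an adjusted p under 0.05. The widest intervals belong to SCD, whose change from 6 h to 48 h was -1.38.

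ABCA12 is the transporter that loads lipids into lamellar bodies, and its loss causes harlequin ichthyosis in people. Its log2 signal lay between 6.96 and 7.63 in the control (median 7.23), between 5.92 and 7.26 at 6 h (6.92), between 6.37 and 7.27 at 24 h (6.91) and between 6.58 and 7.83 at 48 h (7.09). At 6 h 6 of 8 arrays lay below the lowest control, and the groups overlapped. ABCA12 fell at 6 h by 0.53 (SE 0.14, adjusted p = 0.0404), in 8 of 8 dogs. At 24 h it differed by -0.36 (SE 0.14, adjusted p = 0.125) and at 48 h by -0.07 (SE 0.14, adjusted p = 0.777), and neither passed. The 24 h difference passed with the muscle mean as a covariate (-0.43, adjusted p = 0.0466) and with the sebaceous mean (-0.49, adjusted p = 0.0256). It rose from 6 h to 48 h by 0.45 (SE 0.14, adjusted p = 0.0168), in 7 of 8 dogs.

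At 6 h, where ABCA12 fell, 5 of 8 arrays were muscle-rich. The first actin difference was higher there than in the control, by 0.50. The second differed by -0.51, but it ran lower on muscle-rich arrays than on the others, so RNA quality is uncertain. The part of either in the fall of ABCA12 was not tested. The 3 lowest 6 h signals, 5.92 in dog 6, 6.26 in dog 1 and 6.43 in dog 3, came from muscle-rich arrays. So did 6.91 in dog 5 and the highest 6 h signal, 7.26 in dog 2. The 3 arrays poor in muscle read 6.92 to 7.24, and the 2 muscle-rich controls read 6.96 and 7.44. Without the 9 muscle-rich arrays, which leaves 3 of 8 arrays at 6 h, the change was -0.33 (adjusted p = 1.00). With the first actin difference added to the model it was -0.37 (adjusted p = 0.530). Under either setting 0 of all probe sets passed at 6 h in limma. The call was also lost without the dog as a block (adjusted p = 0.156) and without dog 1, 2, 3, 6 or 7 in turn (adjusted p from 0.0716 to 0.201). The rise from 6 h to 48 h was lost without the block (adjusted p = 0.0616), without dog 1 (adjusted p = 0.0614) and without the muscle-rich arrays (0.22, adjusted p = 0.618).

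CERS2 is a ceramide synthase that attaches very long acyl chains and is active in many tissues. The log2 signal of CERS2 ran from 4.32 to 4.97 in the control (median 4.58), from 4.06 to 4.69 at 6 h (4.43), from 4.24 to 5.04 at 24 h (4.86) and from 4.68 to 5.28 at 48 h (5.10). At 48 h 6 of 8 arrays lay above the highest control, and 7 of 8 lay above the highest 6 h array. These signals are dim: they lay below the array median on 7 control arrays and on 8 arrays at 6 h. CERS2 rose at 48 h by 0.44 (SE 0.10, adjusted p = 0.00344), 1.35-fold, in 7 of 8 dogs. At 6 h it differed by -0.20 (SE 0.10, adjusted p = 0.362) and at 24 h by 0.19 (SE 0.10, adjusted p = 0.300).

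Among the 8 genes CERS2 had the lowest adjusted p in any comparison, in the one between 6 h and 48 h. It rose there by 0.63 (SE 0.10, adjusted p = 5.55e-05), in 8 of 8 dogs, and from 6 h to 24 h by 0.39 (SE 0.10, adjusted p = 0.0119), also in 8 of 8. The order of the means was 6 h (4.41), control (4.61), 24 h (4.80) and 48 h (5.04), and no neighbours in it passed the test. The rise at 48 h was as large without the muscle-rich arrays (0.44, adjusted p = 0.0203) and passed with each dog left out in turn (0.39 to 0.51, adjusted p from 0.00161 to 0.0213). Once the actin difference was in the model it was 0.33 (adjusted p = 0.0999), and with the adipocyte mean 0.44 (adjusted p = 0.122). Without the muscle-rich arrays the rises from 6 h to 24 h and to 48 h were of like size and not called (0.34, adjusted p = 0.487, and 0.58, adjusted p = 0.0591). With the actin covariate they were 0.23 (adjusted p = 0.496) and 0.41 (adjusted p = 0.245).

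SMPD1 is the acid sphingomyelinase, which turns sphingomyelin into ceramide. In the 8 dogs its signal ran from 4.88 to 5.37 in the control (median 5.18), from 5.19 to 5.54 at 6 h (5.28), from 5.01 to 5.88 at 24 h (5.35) and from 5.17 to 5.58 at 48 h (5.31). The groups overlapped: 2 arrays at 6 h, 3 at 24 h and 2 at 48 h lay above the highest control. SMPD1 rose at 24 h by 0.23 (SE 0.07, adjusted p = 0.0412) and at 48 h by 0.19 (SE 0.07, adjusted p = 0.0498), each in 7 of 8 dogs. At 6 h the difference was 0.18 (SE 0.07, adjusted p = 0.184), also positive in 7 of 8 dogs, and the pairs of allergen times differed by at most 0.05. Both calls stand near the threshold. Without the block they were lost (adjusted p = 0.148 and 0.149). With each dog left out in turn the 24 h call held without dog 6 alone, and the 48 h call without dog 2 or without dog 8. Without the muscle-rich arrays both differences were of like size and not called (0.24, adjusted p = 0.184, and 0.18, adjusted p = 0.205). With the adipocyte mean as a covariate they were 0.16 (adjusted p = 0.385) and 0.10 (adjusted p = 0.627).

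ACER1 is an alkaline ceramidase of the upper epidermis, which splits ceramide into sphingosine and a fatty acid. ACER1 signals ran from 7.28 to 8.52 in the control (median 7.94), from 6.08 to 8.69 at 6 h (7.79), from 7.17 to 8.93 at 24 h (7.68) and from 7.19 to 8.62 at 48 h (7.76). The groups lay over each other. Differences from the control were -0.13 at 6 h (95% interval -0.46 to 0.19), 0.07 at 24 h (-0.26 to 0.40) and 0.03 at 48 h (-0.30 to 0.36). Dogs differed more than groups: 76.4% of the variance of ACER1 over the 32 arrays lay between dogs and 1.69% between groups. For the median probe set these shares were 25.2% and 16.8%. Dogs 7 and 8 read 8.16 or more in every group, while dog 3 read 7.66 or less and dog 6 read 7.39 or less.

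SCD, stearoyl-CoA desaturase, makes monounsaturated fatty acids and is active in adipocytes and sebaceous glands. Its log2 values ran from 8.22 to 10.36 in the control (median 9.36), from 8.09 to 11.02 at 6 h (9.96), from 7.59 to 9.33 at 24 h (8.61) and from 7.20 to 9.30 at 48 h (8.28). At 48 h 4 of 8 arrays lay below the lowest control, and none lay above the control median. SCD fell at 48 h by 1.10 (SE 0.30, adjusted p = 0.00920), 2.15-fold, in 7 of 8 dogs. At 24 h it differed by -0.87 (SE 0.30, adjusted p = 0.0735), also lower in 7 of 8 dogs, and at 6 h by 0.28 (SE 0.30, adjusted p = 0.717).

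SCD also differed between times after the allergen. It fell from 6 h to 24 h by 1.14 (SE 0.30, adjusted p = 0.00991) and from 6 h to 48 h by 1.38 (SE 0.30, adjusted p = 0.00102), each in 7 of 8 dogs. From 24 h to 48 h the difference was -0.24 (SE 0.30, adjusted p = 0.793). Dog 6 had the widest swing, from 10.96 at 6 h to 7.20 at 48 h. Dog 7, with the lowest 6 h signal, 8.09, read 8.24 at 24 h and 8.09 at 48 h. Without the block the falls at 48 h (adjusted p = 0.0559) and from 6 h to 24 h (adjusted p = 0.0531) were not called. The 48 h fall passed with each dog left out in turn, with adjusted p from 0.00630 to 0.0365. With the actin covariate it was as large (-1.12) and not called (adjusted p = 0.0578). The falls after 6 h were not called without the muscle-rich arrays (-0.83 to 24 h, adjusted p = 0.491, and -1.13 to 48 h, adjusted p = 0.135). With the actin covariate they were as large and not called (-1.16, adjusted p = 0.213, and -1.41, adjusted p = 0.184). With the adipocyte mean as a covariate they were -0.21 (adjusted p = 0.497) and -0.05 (adjusted p = 0.909). The 24 h difference from the control passed when those 2 groups alone were fitted (-0.87, adjusted p = 0.0298) and with the differentiated keratinocyte mean as a covariate (adjusted p = 0.0249).

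ELOVL6 elongates palmitate to stearate, the substrate of SCD. Signals of ELOVL6 ran from 5.56 to 6.67 in the control (median 6.29), from 4.41 to 6.35 at 6 h (5.70), from 4.98 to 6.99 at 24 h (5.63) and from 4.03 to 6.54 at 48 h (5.47). At each time 4 of 8 arrays lay below the lowest control, and the groups overlapped. ELOVL6 fell at 48 h by 0.92 (SE 0.21, adjusted p = 0.00239), 1.89-fold, in 8 of 8 dogs. At 6 h it differed by -0.61 (SE 0.21, adjusted p = 0.118) and at 24 h by -0.46 (SE 0.21, adjusted p = 0.195), each lower in 7 of 8 dogs, and neither passed. Without dog 6, or with array weights, the 6 h difference passed (adjusted p = 0.0463 and 0.0424). No pair of allergen times passed, and dog 6 had the lowest 48 h signal, 4.03. Among the 8 genes ELOVL6 kept its 48 h call under the most settings, with the adipocyte score as the 1 exception.

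Adipocyte markers also fell against the control at 24 h and 48 h, 5 of 6 each time, where 5.2% and 9.08% of all probe sets fell. Of the 6 linked markers 5 fell at 48 h: the hormone leptin, LEP (-2.43, adjusted p = 8.49e-06), lipoprotein lipase, LPL (-1.81), adiponectin, ADIPOQ (-1.79), the lipid droplet protein CIDEA (-1.34) and adipsin, CFD (-0.65). CIDEC differed by -0.79 and did not pass. At 6 h SCD was 10.31 or more in dogs 2, 4, 6 and 8, and the adipocyte mean was 9.86 or more in the same dogs. In the other dogs SCD was 9.61 or less and the adipocyte mean 9.33 or less. The dogs did not line up in this way in the control. There dog 5 was highest in both (10.36 and 10.23), but dog 1 had the lowest SCD, 8.22, with an adipocyte mean of 10.1. ELOVL6 and the adipocyte markers moved unlike each other in some comparisons and alike in others. At 6 h ELOVL6 differed from the control by -0.61 and the adipocyte mean by -0.17. From 6 h to 24 h 5 of 6 adipocyte markers fell (median -0.93), where 8.84% of all probe sets fell. ELOVL6 differed by 0.15, higher in 6 of 8 dogs. From 6 h to 48 h the same number fell (median -1.4), where 13.6% of all probe sets fell. ELOVL6 differed by -0.31, higher in 5 of 8 dogs. From 24 h to 48 h the markers had a median of -0.4, with 0 called. ELOVL6 differed there by -0.45, lower in 6 of 8 dogs, and was not called. At 48 h dog 6 had the lowest SCD, ELOVL6 and adipocyte mean (7.23) of the 8 dogs.

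With the adipocyte mean as a covariate the 48 h change of SCD was 0.41 (adjusted p = 0.362) in place of -1.10, and that of ELOVL6 was -0.39 (adjusted p = 0.494) in place of -0.92. The covariate was itself lower in 8 of 8 dogs at 48 h, so fat content and time after the patch cannot be fully told apart. With it 0 of the 8 genes passed at 48 h in limma, where 1922 of 42924 probe sets passed, down from 8436 without it. Without the muscle-rich arrays both falls at 48 h still passed. The mean of the 11 linked sebaceous markers was 6.37 ± 0.39 in the control and 6.50 ± 0.40 at 48 h (SD, n = 8). That mean joins opposite moves: 2 of the 11 rose and 2 fell at 48 h, where 10.6% of all probe sets rose and 9.08% fell.

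**Figure D3:**
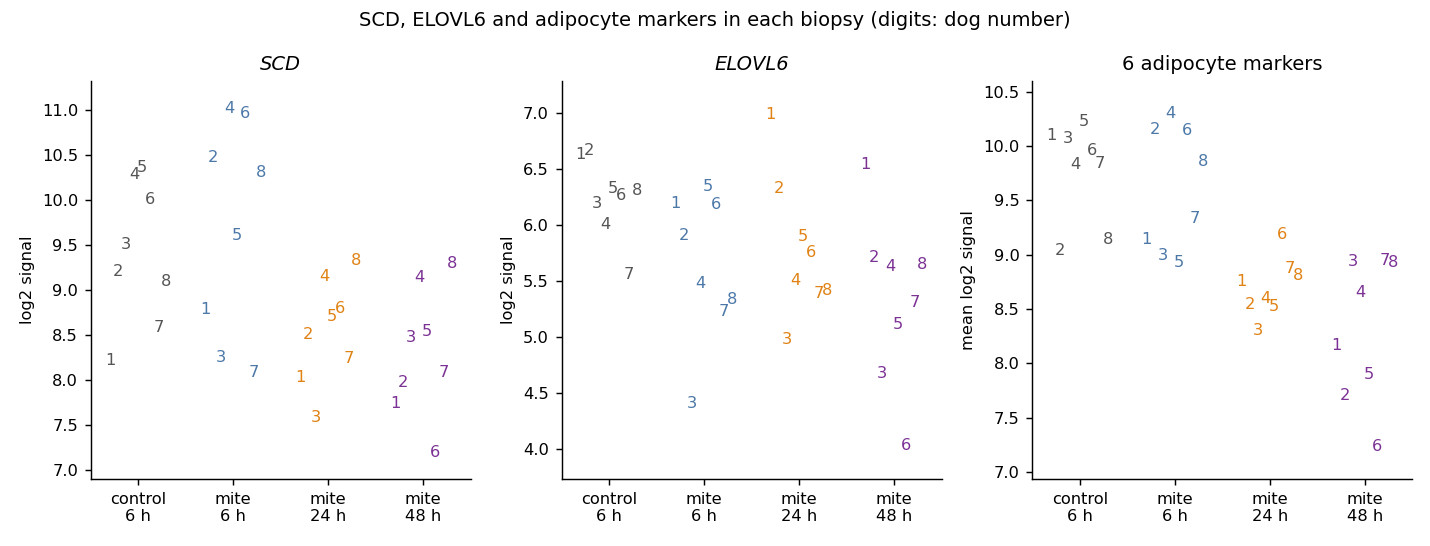
Log2 signal of SCD (left), ELOVL6 (middle) and the mean log2 signal of 6 adipocyte markers (right) on the y axes, in each group on the x axes. Each digit is a biopsy and gives its dog. The adipocyte mean at 48 h, 7.23 to 8.95, lies below the whole control range, and dog 6 is lowest in all 3 panels at 48 h.

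ELOVL7 elongates long saturated fatty acids toward very long ones. Its values ran from 4.04 to 5.33 in the control (median 4.71), from 3.40 to 5.15 at 6 h (4.56), from 3.78 to 5.36 at 24 h (4.49) and from 4.18 to 5.36 at 48 h (4.95). Most of these signals were dim, with 7 of 8 arrays at 6 h below their array median. Against the control no difference passed: -0.39 at 6 h (SE 0.17, adjusted p = 0.264), -0.16 at 24 h (SE 0.17, adjusted p = 0.651) and 0.11 at 48 h (SE 0.17, adjusted p = 0.718). ELOVL7 rose from 6 h to 48 h by 0.50 (SE 0.17, adjusted p = 0.0325), in 7 of 8 dogs. That call was lost without the block (adjusted p = 0.119), without the muscle-rich arrays (0.25, adjusted p = 0.567) and without dog 1, 2, 6 or 7 in turn (adjusted p from 0.0536 to 0.155). Under the actin covariate the sign turned (-0.27, adjusted p = 0.641).

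STS is the steroid sulfatase that removes sulfate from cholesterol sulfate, and its loss causes X-linked ichthyosis in people. STS signals ran from 2.67 to 2.92 in the control (median 2.79), from 2.70 to 2.98 at 6 h (2.81), from 2.57 to 2.89 at 24 h (2.74) and from 2.47 to 2.79 at 48 h (2.56). It lay below the array median on all 32 arrays, and no background level was available, so the size of a log2 change is uncertain. STS fell at 48 h by 0.18 (SE 0.05, adjusted p = 0.0113), in 7 of 8 dogs, and 6 of 8 arrays lay below the lowest control. It fell from 6 h to 48 h by 0.22 (SE 0.05, adjusted p = 0.00180), in 8 of 8 dogs. At 6 h it differed from the control by 0.04 (adjusted p = 0.782) and at 24 h by -0.06 (adjusted p = 0.517). The 48 h call was lost without dog 4 (adjusted p = 0.0513), without the muscle-rich arrays (-0.17, adjusted p = 0.129) and under the actin covariate (-0.14, adjusted p = 0.147).

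Between times after the allergen, 2 of the 8 genes passed from 6 h to 24 h, where 17.3% of all probe sets did. Of these 1 rose, beside 8.44% of all probe sets, and 1 fell, beside 8.84%. From 6 h to 48 h 5 passed, where 29.4% of all probe sets did: 3 rose, beside 15.8%, and 2 fell, beside 13.6%. Without the muscle-rich arrays, or with the actin covariate, 0 of the 8 genes passed in either of these comparisons in limma. Few of the 42924 probe sets passed there at all. Without the muscle-rich arrays 0 did from 6 h to 24 h and 1604 from 6 h to 48 h. With the actin covariate 487 and 849 did. From 24 h to 48 h 0 passed in limma, where 2.37% of all probe sets rose, 0.184% fell and 2.55% changed in either direction. At an unadjusted p under 0.05 there were 3, CERS2 (0.24, adjusted p = 0.270), STS (-0.12, adjusted p = 0.272) and ELOVL6 (-0.45, adjusted p = 0.327). STS was lower at 48 h than at 24 h in 8 of 8 dogs.

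In 5 lists of lipid genes 43 genes are linked, of which 35 are not among the 8. Of these 35, 1 fell at 6 h, 1 fell at 24 h and 2 fell at 48 h, and none rose in limma. Over all probe sets 2.61% fell and 0.275% rose at 6 h, 5.2% fell and 2.96% rose at 24 h, and 9.08% fell and 10.6% rose at 48 h. The genes were SGMS2, a sphingomyelin synthase, at 6 h (-0.59, adjusted p = 0.0458), the ceramide synthase CERS6 at 24 h (-0.32, adjusted p = 0.0491), and at 48 h ORMDL3, an inhibitor of the first step of sphingolipid synthesis (-0.35, adjusted p = 0.00785), and ASAH2, a neutral ceramidase (-0.22, adjusted p = 0.0269). The median change of the 43 was -0.14 at 6 h, -0.12 at 24 h and -0.07 at 48 h, beside 0.01, -0.03 and -0.02 over all probe sets.

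The acylceramide and lamellar body list has 13 linked genes. ABCA12 at 6 h, where 2.61% of all probe sets fell, was its 1 change against the control. CERS3, the synthase of the longest epidermal ceramides, differed by 0.07 at 48 h, the elongase ELOVL4 by -0.33, the lipoxygenase ALOX12B by -0.14 and glucosylceramide synthase, UGCG, by -0.12. At 48 h against the control 10.6% of all probe sets rose and 9.08% fell. Of 13 linked ceramide synthesis genes CERS2 was the 1 that rose there and ORMDL3 the 1 that fell. Of 9 linked genes of sphingomyelin and ceramide breakdown 1 rose in that comparison, SMPD1, and 1 fell, ASAH2. Of 9 linked fatty acid genes 2 fell in it, SCD and ELOVL6. Of the 13 ceramide synthesis genes 4 rose and 1 fell from 6 h to 48 h, where 15.8% of all probe sets rose and 13.6% fell. They include 2 subunits of serine palmitoyltransferase, SPTLC2 (0.33, adjusted p = 0.00449) and SPTLC1 (0.30, adjusted p = 0.0311), and the next enzyme of the path, KDSR (0.30, adjusted p = 0.0253). The fatty acid transporter SLC27A4 (0.44, adjusted p = 0.00424) and the acyl-CoA synthetase ACSL4 (0.60, adjusted p = 0.00168) also rose from 6 h to 48 h. SPTLC1, KDSR and ACSL4 had differed from the control at 6 h by -0.36, -0.35 and -0.44, and none of these passed. SPTLC1, SPTLC2, KDSR, SLC27A4 and ACSL4 did not rise against the control at any time. At 6 h 5 arrays were muscle-rich, and at 48 h none were. Over all probe sets 12600 passed from 6 h to 48 h, 1604 without the muscle-rich arrays and 849 with the actin covariate. The part of muscle or of RNA quality in the rises of these lipid genes was not tested.

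Of 7 linked transcription regulators of lipid genes 3 fell and 1 rose at 48 h, where 9.08% of all probe sets fell and 10.6% rose. PPARA, a receptor that drives fatty acid oxidation, fell by 0.47 (SE 0.10, adjusted p = 0.000836), PPARG, the master regulator of adipocytes and sebocytes, by 0.59 (SE 0.18, adjusted p = 0.0203), and INSIG2, which holds back the activation of SREBP, by 0.52 (SE 0.12, adjusted p = 0.00354). NR1H3, the oxysterol receptor LXR alpha, rose by 0.37 (SE 0.13, adjusted p = 0.0376). PPARA and INSIG2 had fallen at 24 h (-0.35 and -0.41). SREBF2, the regulator of cholesterol synthesis, rose from 6 h to 48 h by 0.38 and differed from the control at 48 h by 0.18. The part of the muscle-rich 6 h arrays in the rise of SREBF2 was not tested. The median of the 7 was 0.00 at 48 h. The adipocyte markers moved the same way as PPARG, and their part in its fall was not tested.

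**Figure D4:**
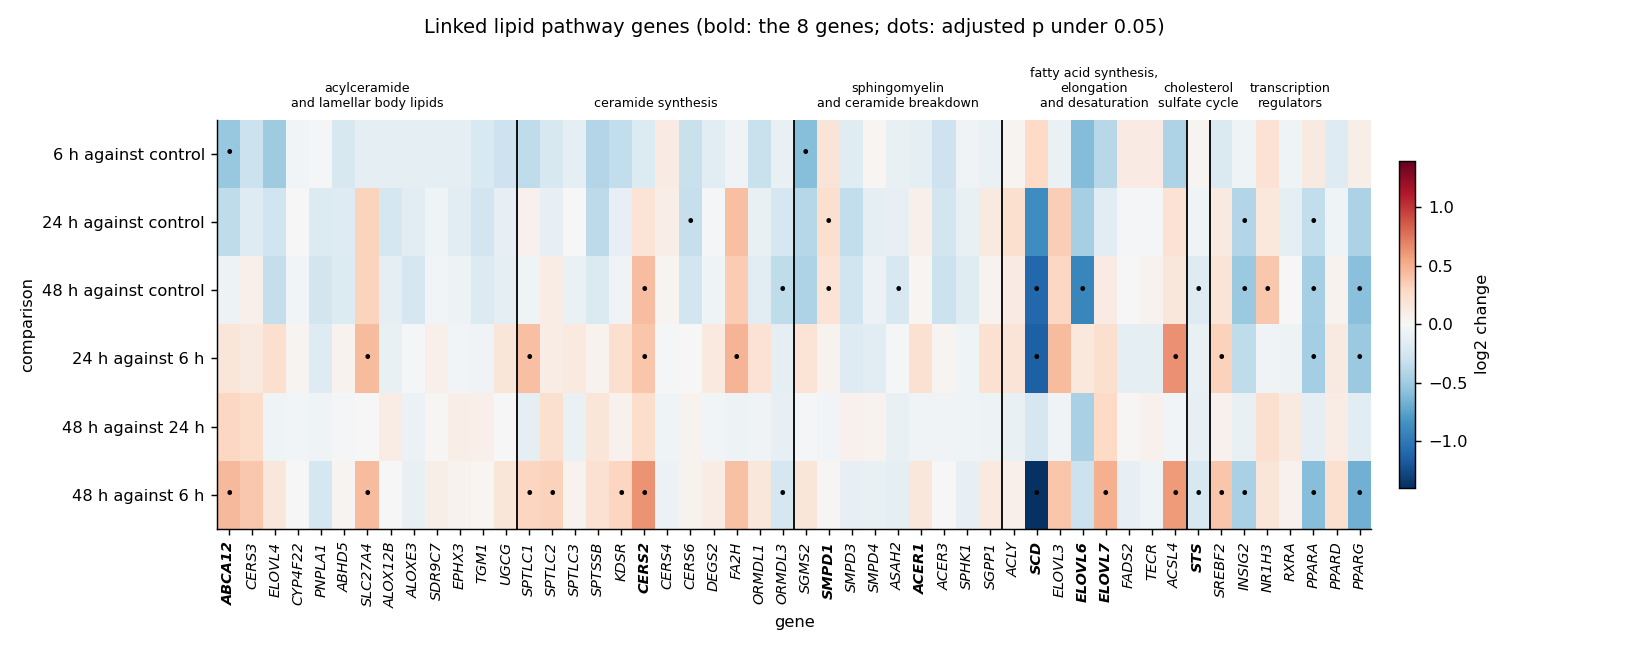
Log2 change (colour) of each linked gene of the lipid lists (x axis, the 8 genes in bold) in the 6 comparisons (y axis). A dot marks an adjusted p under 0.05, and a gene in several lists is drawn once. SCD is the darkest column at 48 h, at -1.10 against the control, beside ELOVL6 at -0.92.

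The 8 genes did not vary as one set across arrays. After centring each gene on the mean of its dog, Pearson's r between them over the 32 arrays ran from -0.64 to 0.83 over all pairs. These are descriptions, since the arrays share dogs, groups and tissue content. ABCA12 and ELOVL7 were the most alike (0.83, and 0.79 with the group removed too), and SCD and ELOVL6 had an r of 0.55 (0.57). CERS2 and STS had -0.64, and -0.04 with the group removed.

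Group differences are part of this r, so genes picked by it tend to share the changes of the gene they resemble. Among 10511 other linked genes, those most like each of the 8 by the same measure were as follows. ABCA12 was most like EREG (0.87), LOC100855903 (0.87) and IL36RN (0.86), or 0.79, 0.81 and 0.86 with the group removed too. All of these fell at 6 h (-0.73, -0.38 and -0.65). SCD was most like GHR (0.94), LPL (0.93) and WISP3 (0.91), and their 48 h changes were -1.21, -1.81 and -1.82. LPL is also one of the adipocyte markers. CERS2 was most like ARPC1B (0.92), YKT6 (0.91) and FAM49B (0.91), or 0.82, 0.74 and 0.75 with the group removed too. These rose at 48 h by 1.06, 0.36 and 0.65. ELOVL7 was most like MAP2 (0.88), and ACER1 was most like HSD17B2 (0.87), SDR16C5 (0.86) and CYP2J2 (0.85). ELOVL6 (HOMER1, 0.80), STS (RASSF9, 0.80) and SMPD1 (TFB1M, 0.69) had the lowest top values.

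T cell and macrophage markers rose over the same time as CERS2. Of 5 linked T cell markers 5 rose at 48 h, where 10.6% of all probe sets rose. The mean of these markers ran from 3.68 to 4.18 in the control and from 4.56 to 6.37 at 48 h. Of 5 linked macrophage and monocyte markers 5 rose, with means from 5.03 to 5.95 and from 6.19 to 7.48. All 4 linked cell cycle markers rose at 48 h too. The part of these cells in the rise of CERS2 was not tested. The mean of 11 linked differentiated keratinocyte markers was 9.06 ± 0.15 in the control, 8.84 ± 0.44 at 6 h and 9.05 ± 0.22 at 48 h (SD, n = 8). In limma 0 of the 11 passed against the control at 6 h, 24 h or 48 h, where 2.89%, 8.17% and 19.7% of all probe sets did. Their median changes were -0.22, -0.23 and -0.12. With the mean of these markers as a covariate the same 5 genes passed at 48 h, and ABCA12 at 6 h did not pass (-0.39).

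**Figure D5:**
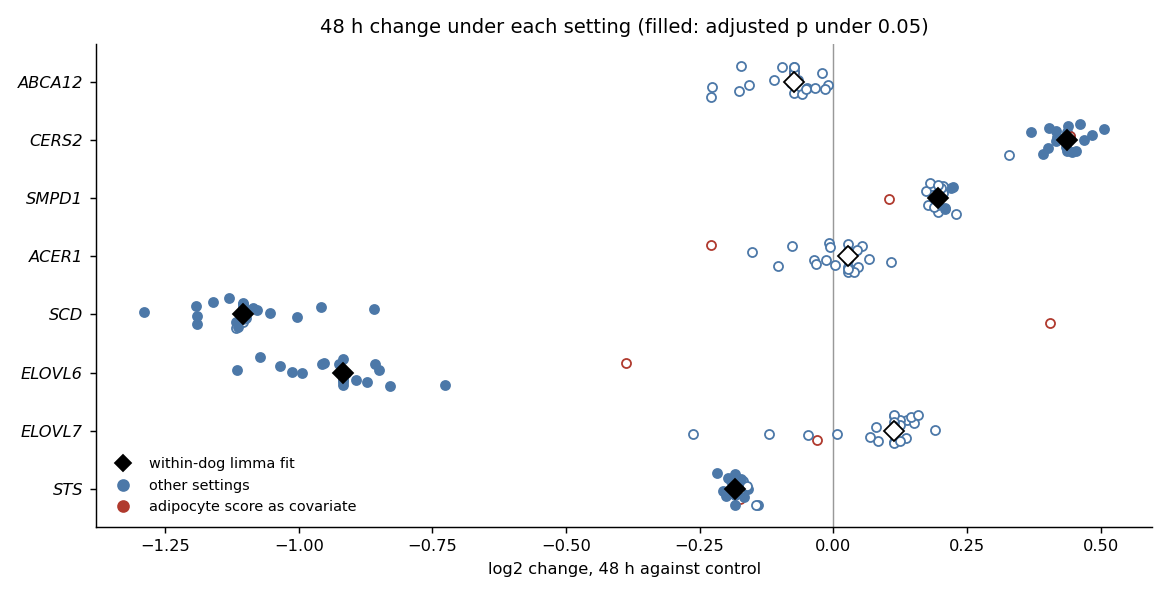
Log2 change at 48 h against the control (x axis) of each gene (y axis) under each analysis setting. Diamonds give the within-dog limma fit, circles the other settings and red circles the adipocyte mean as a covariate, and filled symbols passed at an adjusted p under 0.05. SCD stands at 0.41 and ELOVL6 at -0.39 with that covariate, apart from their other settings.

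In the authors' deposited table, from a model that equals an ordinary fit without the dog, CERS2 is listed with a fold of 1.4 (adjusted p = 0.008) at 48 h, ELOVL6 with -1.9 (adjusted p = 0.043) and STS with -1.1 (adjusted p = 0.023). SCD is listed there with -2.1 (adjusted p = 0.08), SMPD1 with 1.1 (adjusted p = 0.152), and ABCA12 at 6 h with -1.4 (adjusted p = 0.197). These calls of SCD, SMPD1 and ABCA12 were made in the comparison within dogs and not in that table.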

How the data were processed

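Each array measured RNA of 1 biopsy. The deposited log2 signals cover 43035 probe sets on 32 arrays. Of their summary method, normalization and genome build nothing is given in the sources used here. A gene table the authors deposited gives, per the file headers, a signed fold (a score here, negative for a fall) and an adjusted p-value at 3 times for 17107 genes.

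Genes were named by fitting an ordinary linear model without the dog and matching its folds (within 0.05) and adjusted p-values (within 0.001) to that table. Of 17107 genes 10523 matched 1 probe set, and 10512 were used (61.4%). After shuffling the later 2 times' values among genes, 26 matched on average.

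The log2 values were used as deposited. 111 controls were left out, 64 reporter controls were kept, and no filter on dim signals was set. limma 3.58.1 in R 4.3.3 was run with 4 groups, the dog as a fixed block and 21 residual degrees of freedom, and was tested on simulated data. The labels name the dog of each biopsy, which pairs the arrays. Deviations from group means correlated by 0.16 on average over 48 pairs of the same dog (-0.46 to 0.70, 33 above 0.1). Members of 14 gene lists that are named are up to 4 per list and comparison with the largest changes past the test, others are given for context, and the 3 most alike genes per member were listed. CERS3, ELOVL4, ALOX12B, UGCG, CIDEC and CFD were chosen after their values were seen. The 8 genes and the lists were chosen with earlier results of these data known. Array number limits the precision of every value.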

Additional observations from a re-analysis of the deposited data

Results flagged for a closer look

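ACER1 in dog 6 at 6 h read 6.08, far below the next lowest array of its group, 7.48 (the gap is 0.534 of the group's range). Of 32 groups of 8 arrays examined, 1 held such an array, and chance gives about 1 in 20. The same array had the lowest 6 h signals of ABCA12 (5.92) and ELOVL7 (3.40). Its differentiated keratinocyte mean was 7.86, against 8.74 to 9.32 on the other 6 h arrays, and it was muscle-rich. In the other groups ACER1 of dog 6 read 7.24 to 7.39.

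For 5 genes the difference from the control was not the same at all times, by the test of the later time against 6 h within dogs. From 6 h to 24 h CERS2 differed by 0.39 and SCD by -1.14. From 6 h to 48 h ABCA12 differed by 0.45, CERS2 by 0.63, STS by -0.22, SCD by -1.38 and ELOVL7 by 0.50. The 6 h arrays, 5 of 8 of them rich in muscle, are shared by these comparisons.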

How the results depend on the processing

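Of 48 changes (8 genes in 6 comparisons) 14 passed, and 25 alternatives were run. Values of these 14 under the alternatives number 344, of which 342 kept their sign and 246 also passed. The turned ones are SCD at 48 h with the adipocyte mean as a covariate (0.41) and ELOVL7 from 6 h to 48 h with the actin difference (-0.27), and the cause was not tested. The dim filter left out 3 of the 8 genes. Quantile normalization, centring on array medians and leaving out the reporter controls changed no count. Depth here means signal: STS, CERS2 and ELOVL7 lie near or below the array median, where small changes are least certain.

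Numbers of the 8 genes called follow in the order 6 h, 24 h and 48 h against the control, then 6 h to 24 h and 6 h to 48 h, with 1, 1, 5, 2 and 5 reported. From 24 h to 48 h it was 0 under every setting run in limma, and in the ordinary model. With no replicate block, which ignores the pairing by dog, they were 0, 0, 3, 1 and 3, and the ordinary model without the dog gave the same numbers. With the dog as a random effect they were 0, 0, 4, 2 and 4, and with 2 groups only 0, 1, 5, 2 and 5. Without dim probe sets they were 1, 1, 3, 1 and 2, with an intensity trend 1, 0, 4, 2 and 5, and with array weights 2, 1, 5, 2 and 5. Without the muscle-rich arrays they were 0, 0, 3, 0 and 0, and with the muscle mean as a covariate 0, 1, 4, 1 and 3. With the adipocyte mean they were 1, 0, 0, 0 and 1, with the differentiated keratinocyte mean 0, 2, 5, 2 and 3, and with the actin difference 0, 1, 1, 0 and 0. The 1 gene called at 24 h was not always SMPD1: it was ABCA12 with the muscle mean or the sebaceous mean, and SCD with 2 groups only. The settings chosen after seeing the data were the reporter controls and a pair of others: without the 24 h array of dog 5 they were 1, 0, 5, 2 and 5, and with the sebaceous mean 0, 1, 4, 0 and 3. With each dog left out in turn they ran from 0 to 1, from 0 to 1, from 3 to 5, stayed at 2, and ran from 3 to 5.

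Over all probe sets, the counts that moved by over 1.5 times were these. At 6 h 1239 passed, with 469 without the block, 331 in the ordinary model, 2003 with array weights, 611 with the muscle mean, 0 without the muscle-rich arrays or with the actin difference, 1915 leaving out dog 5's 24 h array, and 283 to 1876 with a dog left out. At 24 h 3506 passed, with 2160 without the block, 1937 in the ordinary model, 2325 without the muscle-rich arrays, 789 with the adipocyte mean and 2131 without dog 3. At 48 h 8436 passed, with 1922 with the adipocyte mean and 5445 with the actin difference. Between 6 h and 24 h 7415 passed, with 4691 for 2 groups only, 3564 with the muscle mean, 0 without the muscle-rich arrays, 4743 with the adipocyte mean, 487 with the actin difference, 3583 with the sebaceous mean and 4378 without dog 3. Between 24 h and 48 h 1096 passed, with 461 without the block, 433 for 2 groups only, 226 in the ordinary model, 207 without the muscle-rich arrays, 640 with the adipocyte mean, 314 with the actin difference, 1821 with the sebaceous mean, 620 leaving out dog 5's 24 h array, and 247 to 1625 with a dog left out. Between 6 h and 48 h 12600 passed, with 5831 with the muscle mean, 1604 without the muscle-rich arrays, 6256 with the adipocyte mean, 849 with the actin difference and 8335 with the sebaceous mean.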

Other observations

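Sebaceous gland markers, not described above one by one, moved in both directions. KRT79, a keratin of sebaceous ducts, rose at 48 h by 0.99 (SE 0.21, adjusted p = 0.00115) and FAR2, a wax-forming reductase, by 0.46 (SE 0.14, adjusted p = 0.0234). MC5R, the melanocortin receptor of sebocytes, fell by 0.56 (SE 0.11, adjusted p = 0.000926), and PPARG also fell. SOAT1, which esterifies cholesterol, rose from 6 h to 48 h by 0.61 (adjusted p = 0.00535). The part of the muscle-rich 6 h arrays in the rise of SOAT1 was not tested. Of the 11 linked markers 2 rose and 2 fell at 48 h, with a median of 0.16, where 10.6% of all probe sets rose and 9.08% fell.

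Of 11 linked markers of differentiated keratinocytes 3 rose from 6 h to 48 h and 8 did not pass (median 0.06), where 15.8% of all probe sets rose. CASP14, a protease of cornification, rose by 0.65 (adjusted p = 0.00505), KRT10 by 0.62 (adjusted p = 0.0481) and KRTDAP by 0.45 (adjusted p = 0.00311). Of 5 linked basal markers the keratin KRT5 rose by 0.58 (adjusted p = 0.00233) and KRT15 fell by 0.90 (adjusted p = 0.00198). Of the 8 arrays at 6 h 5 were muscle-rich and none of those at 48 h were, and the actin difference had means of 2.78 and 1.79. The part of either in these differences was not tested. KRT15, a keratin of hair follicle stem cells and basal cells, fell by 0.91 at 48 h against the control (SE 0.21, adjusted p = 0.00256).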
